A study of Mus musculus with 4 samples.

Results

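Early proximal tubule cells are the first cells of the nephron to meet the glomerular filtrate. They were picked out here from droplet single-cell RNA libraries of whole mouse kidney by the UMIs (unique molecular identifiers, each standing for 1 captured RNA molecule) of a few genes. A barcode was taken when it held at least 500 UMIs with at most 50% of them from mitochondrial genes, at least 2 UMIs of Slc5a2 plus Slc5a12, no UMI of Slc7a13, Ptprc, Slc12a1, Slc12a3 or Havcr1, and fewer than 3 of 8 cell cycle genes. This early gate held 9341 of 60670 barcodes. The kidneys came from male C57BL/6 mice, 6 to 8 weeks old, that had intraperitoneal injections of glyoxylate, a precursor of oxalate, on 0, 1, 4 or 7 successive days. Each time point (D0, D1, D4 and D7) was 1 library of dissociated kidney cells, and the number of mice behind a library is not given in the sources used here. With 1 library a day, every difference below is between libraries, with no replicate check and no test, and the 95% intervals cover counting error only.

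The early segment, S1, takes back most of the filtered glucose, amino acids, bicarbonate and protein. Its brush border carries the low-affinity glucose transporter SGLT2 (Slc5a2), the lactate transporter Slc5a12 and the neutral amino acid transporter Slc6a19, and the cells make glucose from lactate and glutamine. Glyoxylate given to mice is turned into oxalate, which is filtered and forms calcium oxalate crystals in the tubules.

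The gate held 2463 cells at D0, 1477 at D1, 2907 at D4 and 2494 at D7. Their summed UMIs were 16601513, 12439174, 14150130 and 14011895, and levels are given as a gene's UMIs per 1000000 of these (CPM). The median cell had 5594, 7271, 4438 and 5076 UMIs, with 16.7, 11.8, 16.8 and 18.0% of them mitochondrial. The D0 and D1 libraries kept barcodes down to 500 UMIs, and the lowest barcodes of D4 and D7 had 2919 and 2773, so shares of cells were also read at a fixed depth. Libraries shared 50 to 81 barcodes per pair and at most 5 early cells.

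The label held on the markers that the gate did not use. Slc6a19 stood at 273, 194, 208 and 195 CPM in the early gate at D0, D1, D4 and D7, and at 19.3, 12.9, 22.1 and 21.5 CPM in a late gate built the same way on Slc7a13, a transporter of the last proximal segment. The phosphate transporter Slc34a3 had 118, 96.6, 88.6 and 76.9 CPM against 2.42, 0.759, 3.24 and 2.33. Of the 2 genes that chose the cells, Slc5a2 lies on chr7:128265657-128272430 (plus strand) and Slc5a12 on chr2:110597298-110647779 (plus strand, GRCm38, GENCODE M21), both as protein-coding genes.

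Just outside the gate, barcodes with 1 UMI of Slc5a2 plus Slc5a12 had 84.6 CPM of Slc6a19 at D0 and 91.6 at D7. Just inside it, barcodes with 2 UMIs had 126 and 127 CPM, and those with 4 or more had 314 and 229 CPM. The Slc6a19 level stepped up with each UMI of the gate genes in every library, and the top step was lower at D7 than at D0.

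Early cells made up 20.2% of proximal tubule barcodes at D0 (those with at least 2 UMIs of Slc34a1 plus Lrp2; exact Clopper-Pearson interval 19.4 to 20.9), 17.7% at D1, 18.7% at D4 and 18.9% at D7. With every barcode of 3000 or more UMIs thinned to 3000, the shares were 20.0, 16.8, 16.0 and 16.1%. The D0 share was the highest on both readings, but with at most 25% mitochondrial UMIs per cell it was 19.1% against 19.4% at D4. RNA of the gate genes was also seen in barcodes of other cells. Of barcodes with a Ptprc UMI, the leukocyte marker, 7.21% at D0, 5.93% at D1, 22.8% at D4 and 13.5% at D7 held 2 or more UMIs of the gate genes. It was also seen in 3.25, 3.85, 18.4 and 9.5% of barcodes with 2 or more UMIs of Slc12a1, a thick ascending limb marker. How far such RNA sets the early share was not tested. The 8 proximal tubule markers stood in Ptprc barcodes at a median of 38.7, 31.1, 59.7 and 48.5% of their early-gate level at D0, D1, D4 and D7. Ptprc barcodes were thus not free of tubule RNA, and its level differed between days. Where they are set beside early cells below, they are a rough comparison only.

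**Figure D1:**
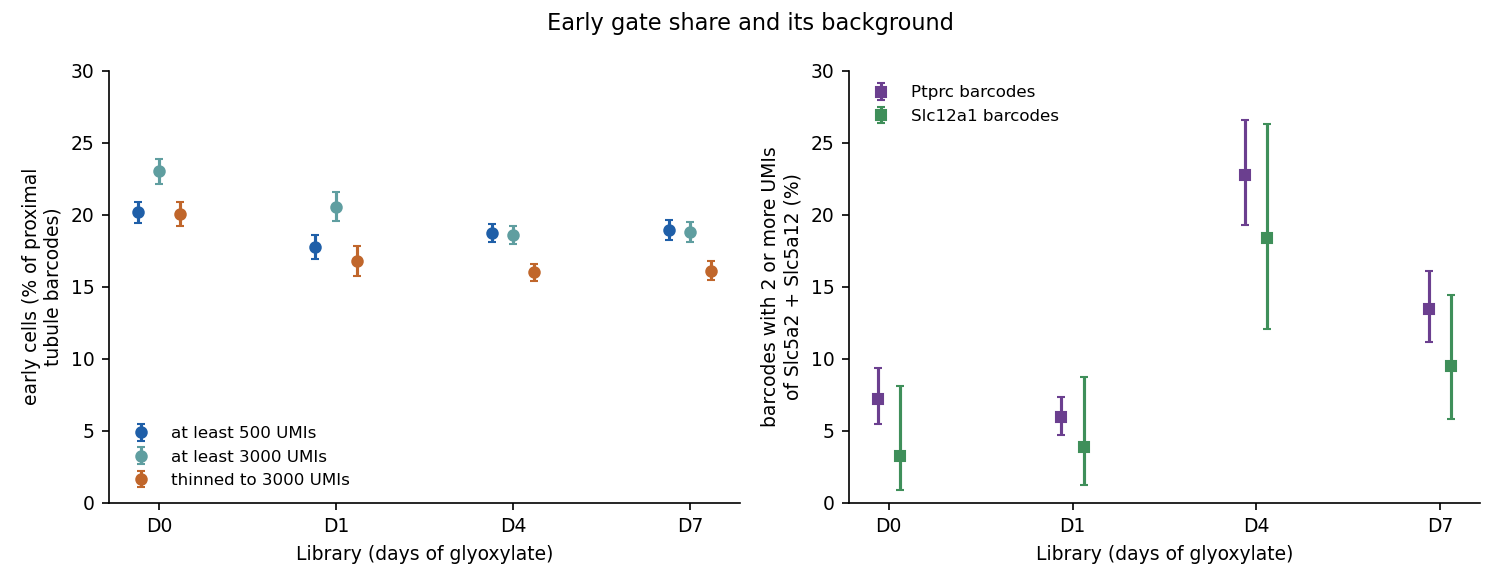
Left: early cells as a percentage of proximal tubule barcodes in each library, with all barcodes of 500 or more UMIs, of 3000 or more, and thinned to 3000. Right: barcodes of 2 other cell classes, marked by Ptprc or by Slc12a1, that hold 2 or more UMIs of Slc5a2 plus Slc5a12. Bars are exact 95% intervals. The thinned share is highest at D0 (20.0%), and the background is highest at D4 (22.8% of Ptprc barcodes).

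Markers of the late segment in the early gate stood at a median of 4.01, 5.63, 11.8 and 7.55% of their level in the late gate. The summed level of 8 mononuclear phagocyte markers was 19.0, 23.2, 36.2 and 75.7 CPM, all 8 detected in each library, which was 0.261, 0.354, 1.17 and 0.752% (median marker) of that in Ptprc barcodes. Haemoglobin genes, all 4 detected in each library, summed to 0.843 CPM at D0, 151 at D4 and 13.7 at D7. The 4 fibroblast markers were at 0 in D0 and summed to 154 UMIs at D7, with all 4 detected. The thick ascending limb markers summed to 15.6, 18.1, 16.7 and 22.9 CPM, with Slc12a1 at 0 by the gate, and podocyte markers stayed at or below 0.402 CPM, with Podxl at 0 in each library. The part of RNA from other cells in the differences below was not tested.

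The gated cells were not all alike. At D0, 77.6% of them had UMIs of both Slc5a2 and Slc5a12, 17.9% of Slc5a2 alone and 4.51% of Slc5a12 alone; at D7 the shares were 72.8, 19.6 and 7.66%. Cells with both genes had the highest Slc6a19 level of the 3 classes in each library, 291 CPM at D0 and 215 at D7. The glycoprotein gene Spp2 was also highest in cells with both genes, with 1015 CPM against 681 (Slc5a2 alone) and 321 (Slc5a12 alone) at D0, and 569 against 447 and 293 at D7. Gatm and Spp2 were lower at D7 than at D0 within all 3 classes, Gatm going from 2547 to 1438, from 2321 to 1102 and from 2480 to 1180 CPM. The choice of cells by these 2 genes sets their own levels, which are a description: Slc5a2 had 621, 494, 484 and 465 CPM, and Slc5a12 had 366, 330, 365 and 345 CPM.

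Genes were counted as higher or lower where the ratio of CPM + 1 to D0 was at least 1.5-fold, among genes with 50 or more UMIs in the 2 sums. The D1 library had 186 of 10374 genes higher (1.79%) and 81 lower (0.781%). The D4 library had 343 of 10468 higher (3.28%) and 78 lower (0.745%). In the D7 library 560 of 10486 were higher (5.34%) and 189 lower (1.8%). The median gene moved by 0.08, 0.03 and 0.05 on the log2 scale. With edgeR's TMM scaling the split at D1 turned to 124 higher and 142 lower, and it was 467 and 260 at D7. Leaving mitochondrial genes out of the total gave 120 and 183 at D1. A pseudocount of 10 CPM in place of 1 left 21 higher and 17 lower genes at D1, 118 and 11 at D4, and 188 and 58 at D7. The excess of higher genes held at D4 and D7 under these settings, and at D1 it did not hold under TMM or without mitochondrial genes.

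The genes that mark the early segment without being part of the gate were lower at D7. Of 9 such genes, all measured, 5 were lower and 0 higher against the 1.8% lower and 5.34% higher of all genes, with a median log2 ratio of -0.59. At D4 only Gatm of the 9 was lower, a call kept under 10 of 13 alternative settings, and at D1 none was (medians -0.39 and -0.29). The D7 median fell short of 1.5-fold under 6 of the 13, for example at -0.45 with at most 25% mitochondrial UMIs per cell. In the late gate, where most of these genes sit far lower, the D7 median was 0.03, with 1 higher (Prodh2) and 0 lower. Thinned late cells with a UMI at D7 were fewer than Ptprc barcodes for Gatm (25.5 against 35.7%), Slc6a19 (5.77 against 8.39%) and Slc34a3 (0.838 against 3.13%). For Slc2a2 they were more (16.6 against 9.67%). How far RNA of early cells sets these late levels was not tested.

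Gatm, the mitochondrial enzyme that makes the precursor of creatine, lies on chr2:122594467-122611303 (minus strand). It had 2516, 2272, 1596 and 1356 CPM at D0, D1, D4 and D7, a D7 level 0.539-fold of D0 (counting interval 0.530 to 0.548). The level stepped down in each later library. Per cell, thinned to 3000 UMIs, the median count went from 7 at D0 to 6, 4 and 4, and the share of cells with a UMI from 98.7% to 91.8% (98.5 and 96.0% unthinned). Of Ptprc barcodes, 41.6% at D0 and 35.7% at D7 held a Gatm UMI after the same thinning.

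Spp2 had 947, 814, 642 and 526 CPM, ending at 0.555-fold of D0 (0.540 to 0.571). Slc34a3, the electroneutral sodium-phosphate transporter, ended at 0.650-fold. Slc7a8, a basolateral exchanger of neutral amino acids, had 135, 97.0, 98.2 and 86.6 CPM, and the organic anion transporter Slc22a8 had 282, 230, 270 and 187 CPM. These last 3 genes lie near the 1.5-fold line: the same 25% limit left Slc34a3 at -0.54, Slc7a8 at -0.45 and Slc22a8 at -0.51 on the log2 scale, short of the call, and Spp2 at -0.57. Gatm kept its D7 call under all 13 alternative settings.

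The other 4 early-segment genes did not reach 1.5-fold. Slc6a19 was at 0.716-fold of D0 at D7 and had already been at 0.713-fold at D1. The basolateral glucose transporter Slc2a2 (163, 130, 145 and 145 CPM) and the sodium bicarbonate cotransporter Slc4a4 (1105, 845, 985 and 901 CPM) had their lowest level at D1. Prodh2, the hydroxyproline dehydrogenase that feeds the cell's own glyoxylate pathway, had 145, 154, 152 and 150 CPM, with a D7 ratio of 1.04 (0.980 to 1.10).

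**Figure D2:**
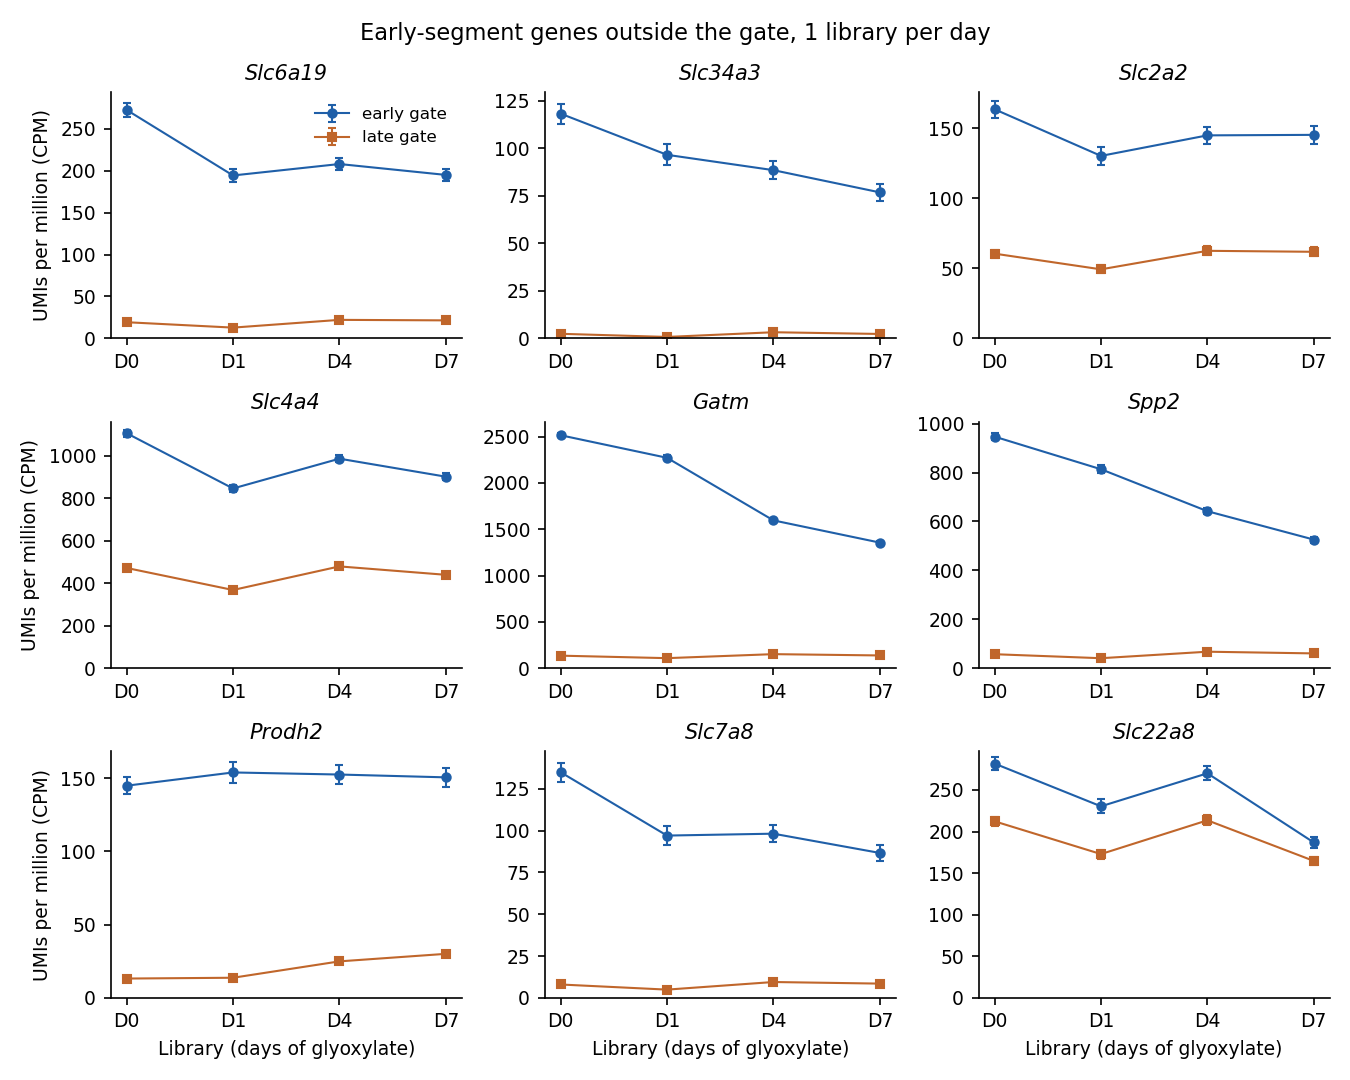
Level (CPM, linear axis from 0) of the 9 early-segment genes outside the gate in the early gate (circles) and the late gate (squares), 1 library per day; bars are approximate 95% counting intervals. Gatm goes from 2516 to 1356 CPM and Spp2 from 947 to 526 CPM in the early gate, and Prodh2 stays between 145 and 154 CPM.

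Apical and basolateral carriers moved in both directions and mostly little. Of 18 genes of amino acid and peptide transport, 16 were measured. At D7, 1 was higher (5.34% of all genes) and 2 were lower (1.8%), with a median of -0.12. The higher gene, the glycine transporter Slc6a18 of the later segments, had 18.4, 17.0, 40.6 and 46.7 CPM in the early gate against 185, 169, 262 and 274 CPM in the late gate, and 17.5% of Ptprc barcodes against 11.8% of early cells held a UMI of it at D7 after thinning to 3000 UMIs, so background cannot be told from expression. Slc7a8, among the lower ones, is described above.

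Among ion carriers the sulfate transporter stood out. Slc13a1, the brush border sodium-sulfate cotransporter, had 392, 568, 585 and 921 CPM, 2.35-fold higher at D7 (2.28 to 2.42). It was above D0 in each later library and highest at D7. Of early cells thinned to 3000 UMIs, 61.1, 67.3, 73.0 and 85.0% held a UMI of it, against 20.2, 17.1, 46.5 and 35.4% of Ptprc barcodes. The ubiquitous phosphate transporter Slc20a1 had 18.4, 19.1, 33.5 and 43.4 CPM.

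All 21 phosphate, sulfate, bicarbonate, sodium and water transport genes were measured. At D7, 2 were higher, Slc13a1 and Slc20a1 (5.34% of all genes), and 2 lower, Slc34a3 and Car14 (1.8%), with a median of -0.08. Car14, a membrane carbonic anhydrase, had 114, 89.6, 92.1 and 67.7 CPM. The main phosphate transporter Slc34a1, named outside the rule for named genes, was at 0.819-fold at D7, short of the call. Of 12 sugar and organic acid transport genes, 11 were measured and 2 were higher at D7 (5.34% of all genes), Slc5a1 and Slc5a10. Both have their home in the late segment, and Slc5a1, the high-affinity glucose transporter, stood at 0.904 CPM at D0 and 3.43 at D7 in the early gate; in cells with 4 or more UMIs of the gate genes its log2 ratio was 0.57, below the call.

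Protein uptake and drug transport showed no such movement. None of 14 protein endocytosis genes, among them the receptor Lrp2 (761, 633, 680 and 650 CPM), reached 1.5-fold on any day. Of 17 genes for organic anions and cations, 16 were measured and only Slc22a8 was called at D7, as lower (1.8% of all genes). Lists with few calls show only that no difference of 1.5-fold or more was seen between these libraries.

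Among the genes of glucose production 1 was lower. G6pc, the glucose-6-phosphatase that releases glucose, had 682, 386, 642 and 330 CPM, 0.566-fold of D0 at D1 (0.548 to 0.586) and 0.483-fold at D7 (0.467 to 0.500). The level was low at D1 and D7 and near that of D0 at D4. The thinned share of cells with a UMI followed it, with 72.4, 53.8, 70.9 and 49.7%, and so did that of Ptprc barcodes, with 26.1, 10.8, 35.9 and 17.1%. The late gate had 408, 198, 251 and 184 CPM, and there the D4 level was low as well. Of 11 measured genes of gluconeogenesis and ammonia production (12 listed), G6pc was the only one called on any day. It was lower at D1 (0.781% of all genes) and D7 (1.8%). Pck1, which makes phosphoenolpyruvate, had 1466, 1730, 1182 and 1054 CPM, and the D7 median of the list was -0.32.

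Enzymes that handle glyoxylate and hydroxyproline stayed near their D0 level. Of 13 listed, 11 were measured, and only Agxt2 was called, as lower at D7 (1.8% of all genes), with 73.3, 56.7, 59.6 and 42.3 CPM. Agxt2 is a mitochondrial aminotransferase that can use glyoxylate. Grhpr, which reduces glyoxylate to glycolate, had 388, 400, 351 and 328 CPM. Hao2, a peroxisomal hydroxyacid oxidase, had 180, 249, 231 and 249 CPM, above D0 on all 3 later days without reaching 1.5-fold.

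Most fatty acid genes lay within 1.5-fold of D0. Of 22 genes of fatty acid oxidation and PPAR alpha targets, all measured, 5 were higher and 1 was lower at D7 (5.34% and 1.8% of all genes), with a median of 0.05. Among the higher ones were targets of the receptor at low levels: Cyp4a14 went from 3.55 to 19.4 CPM (5.46-fold, 4.11 to 7.37), Cyp4a10 from 27.2 to 62.3, Pdk4 from 4.70 to 15.6 and Angptl4 from 54.6 to 85.9. At D7 the thinned share of early cells with a UMI lay below that of Ptprc barcodes for Cyp4a14 (4.36 against 4.98%), Cyp4a10 (14.1 against 16.5%) and Pdk4 (3.60 against 5.83%), so background cannot be told from expression. These 3 had higher levels in the late gate on each day, with 97.0 CPM of Cyp4a14 there at D7, and the early-gate ratio of Angptl4 held its call under 6 of 13 alternatives. Acaa2, the last enzyme of mitochondrial beta-oxidation, was the lower one, with 421, 461, 308 and 245 CPM (0.581-fold, 0.558 to 0.606).

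Respiratory chain genes did not move by 1.5-fold at D4 or D7. None of 20 nuclear ones was called on any day, and their medians were 0.09, -0.13 and -0.14. Of 13 mitochondrial ones, 3 were lower at D1 (0.781% of all genes), when the median cell also had the lowest mitochondrial share. These were mt-Nd3, mt-Co3 and mt-Atp6, named after their values were seen.

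The D1 library differed from D0 in a small set of genes. Among genes with 100 or more UMIs and at least 50 CPM in the higher library, the limits used for all such ranks against D0, the largest ratios were those of Fgg (16.4 to 65.8 CPM, 4.01-fold, 3.49 to 4.62), the calcium-binding S100g (53.4 to 112, 2.10-fold) and the glutathione transferase Gsta4 (57.0 to 119, 2.09-fold). S100a10 (1.77-fold), Sat1, the enzyme that acetylates spermidine (1.73-fold), Npl (1.69-fold), Vgll4 (1.69-fold) and Nmrk1 (1.68-fold) followed. S100g was back at 57.9 CPM at D7, where Gsta4 was still at 106.

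The lowest D1 ratio within these limits was that of Cyp24a1, the enzyme that breaks down vitamin D. It had 50.3, 19.7, 45.6 and 55.8 CPM, 0.392-fold at D1 (0.338 to 0.452) and 1.11-fold at D7, so only the D1 library was low. Angptl4 (0.480-fold) and the thyroid hormone carrier Ttr (0.518-fold) were next, followed by G6pc, AY036118 (0.602-fold), the amine transporter Slc18a1 (0.603-fold), Timp3 (0.632-fold), an inhibitor of matrix proteases, and Tmem64 (0.636-fold). Timp3 had 1737, 1097, 1940 and 1487 CPM, with its lowest level at D1. Of 20 measured immediate-early and heat shock genes, 4 were lower at D1 (0.781% of all genes), 1 was higher (1.79%) and 15 lay between. The lower ones were Fosb, whose call was lost under 4 of 13 alternatives, and Egr1, Ier2 and Dusp1, named after their values were seen; the higher one was Ier3.

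At D4 the same immediate-early and heat shock list was high. Of 20 measured genes, 17 were higher and 0 lower, with a median log2 ratio of 0.86 against 0.03 for all genes, and 3.28% of all genes were higher. At D7, 13 of 21 were higher (5.34% of all genes), with a median of 0.92. Such genes are also induced when tissue is dissociated at 37 °C, as was done here for every library, and the part of handling was not tested. In the late gate 15 of 21 were higher on each of these days, against 354 of 10680 (D4) and 462 of 10702 (D7) of all genes.

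Among them the heat shock gene Hspa1a had 48.5, 32.6, 161 and 194 CPM, 3.99-fold higher at D7 (3.69 to 4.32). Fosb, a partner of Jun in AP-1, had 91.8, 59.1, 251 and 184 CPM. Both had their lowest level at D1. After thinning, 27.5% of early cells against 31.7% of Ptprc barcodes held a Hspa1a UMI at D7, and 29.3 against 29.0% a Fosb UMI. Atf3, a stress-induced repressor, had 7.65, 6.67, 33.3 and 58.7 CPM, but only 9.26% of thinned early cells held a UMI of it at D7 against 44.4% of Ptprc barcodes, so background cannot be told from expression there. Ptprc barcodes come from cells that express these genes themselves, and the share of early cells was also the lower one for Btg2 (17.8 against 64.6%) and Ier3 (3.13 against 28.6%).

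Within the same limits, the genes with the largest D4 ratios were, beside Hspa1a and Fosb, Tmigd1 (3.71-fold, a brush border protein with 296 to 466 CPM in the late gate), Fgg (3.52-fold), Sgk1 (3.26-fold, a kinase induced by glucocorticoids), Cyr61 (3.11-fold), Gdf15 (2.96-fold) and Id1 (2.71-fold). Sgk1 had 27.2, 26.4, 88.8 and 111 CPM. Tmigd1 had 16.1, 14.6, 59.6 and 65.2 CPM in early cells, and its share of 14.3% at D7 lay below the 21.2% of Ptprc barcodes. Of 13 measured glucocorticoid and fasting genes (14 listed), 7 were higher at D4 (3.28% of all genes) and 6 at D7 (5.34%), and Igfbp1 was lower at D7, with 34.4, 25.1, 26.0 and 12.8 CPM. Id1, an inhibitor of basic helix-loop-helix factors, had 40.0, 39.0, 108 and 153 CPM, and 22.7% of early cells against 8.82% of Ptprc barcodes held a UMI at D7 after thinning.

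Within these limits the lowest D4 ratios belonged to Keg1 (0.585-fold), Cdkl1 (0.628-fold), Gatm (0.634-fold), Rgl1 (0.637-fold), the fatty acid carrier Fabp3 (0.666-fold), Ggact (0.667-fold), the acetyl-CoA synthetase Acss1 (0.670-fold) and the steroid dehydrogenase Hsd3b2 (0.670-fold). Cdkl1 and Acss1 went lower still at D7, to 0.417-fold (98.5 to 41.1 CPM) and 0.485-fold (114 to 55.5 CPM). Keg1 was lowest at D4, with 1265, 1542, 741 and 1046 CPM.

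The other genes ranked lowest at D7 were Slc18a1 (0.482-fold), Nav2 (0.500-fold), the carbonic anhydrase Car3 (0.539-fold) and the transcription factor Etv1 (0.539-fold). Car3 had 413, 338, 306 and 223 CPM in the early gate and at most 12.4 CPM in the late gate. Its level stepped down across the days as that of Gatm did.

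Of the 20 lists, tubule injury genes had the highest median at D7. Of 26 genes, 16 were measured at D1, 17 at D4 and 19 at D7. The D1 library had 7 higher (1.79% of all genes), with a median of 0.44. The D4 library had 10 higher (3.28%) and 2 lower (Krt18 and S100a6; 0.745%), with a median of 0.82. The D7 library had 15 higher (5.34%) and 1 lower (1.8%), with a median of 1.24. The late gate had medians of 0.53, 1.00 and 1.37 over the same list. Krt18 and S100a6 lie outside the rule for named genes and were named after their values were seen. S100a6, the lower gene at D7, had 44.8, 71.5, 21.7 and 13.1 CPM. Havcr1, the best-known injury gene, was kept out by the gate: of cells that met every other condition, 0.0406, 0.806, 1.86 and 2.92% held a UMI of it.

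Spp1, the secreted phosphoprotein osteopontin that binds calcium oxalate crystals, lies on chr5:104435118-104441050 (plus strand). It had 748, 1136, 1586 and 3453 CPM, 4.61-fold higher at D7 (4.52 to 4.71), and stepped up in each later library. After thinning to 3000 UMIs, 66.5, 70.5, 86.6 and 95.6% of early cells held a UMI, with medians of 1, 2, 3 and 7. Unthinned, the share was 75.6% at D0 and 97.8% at D7.

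Spp1 was also higher at D7 in barcodes of other cells. Ptprc barcodes held 114 CPM at D0 and 1496 at D7, Slc12a1 barcodes 1461 and 16860 CPM, and 53.5% of thinned Ptprc barcodes had a UMI at D7. Cells of the late gate had 548 CPM at D7, and the early level was 6.30 times that (6.18 to 6.42). The part of RNA from other cells in the early level was not tested.

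The 3 fibrinogen chains, which the liver makes for clotting and injured tubules also make, were higher together. Fgg had 16.4, 65.8, 57.6 and 130 CPM, and was 7.96-fold higher at D7 (7.00 to 9.07). It was above D0 in each later library, and 23.1% of thinned early cells against 7.54% of Ptprc barcodes held a UMI at D7. Fga and Fgb are named beside it although they lie outside the rule for named genes and were chosen after their values were seen. Fga had 10.1, 32.1, 21.5 and 44.0 CPM (4.38-fold at D7, 3.68 to 5.23), and Fgb had 6.26, 8.84, 9.47 and 15.3 CPM (2.45-fold, 1.93 to 3.13). In the late gate the D7 levels of Fgg, Fga and Fgb were 32.5, 22.3 and 0.993 CPM.

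The 3 genes lie side by side on chromosome 3, Fgg at chr3:83007724-83015049 (plus strand), Fga at chr3:83026076-83033627 (plus strand) and Fgb at chr3:83040141-83049863 (minus strand). The 150 bases before the start site were read from RefSeq's promoter table (GRCm38.p6) for all 3, and 2 are shown because their genes moved together at different sizes. Capitals mark GTTAAT on either strand, the core of an HNF1 site, and CTGGGAA on either strand, the core of an interleukin-6 response element, and no match overlapped another.
Fgg, chr3:83007574-83007723, plus strand: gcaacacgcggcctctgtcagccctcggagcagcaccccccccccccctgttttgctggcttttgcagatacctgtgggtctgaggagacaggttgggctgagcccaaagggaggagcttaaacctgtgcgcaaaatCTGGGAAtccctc
Fgb, chr3:83049864-83050013, minus strand: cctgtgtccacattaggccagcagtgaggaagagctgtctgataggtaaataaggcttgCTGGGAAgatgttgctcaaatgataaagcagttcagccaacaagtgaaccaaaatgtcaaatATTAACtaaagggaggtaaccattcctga
The Fgg stretch held CTGGGAA from base -13 to -7 before the start. Fgb held it from -91 to -85 and GTTAAT on the opposite strand from -29 to -24, and Fga held GTTAAT on the opposite strand from -43 to -38. The Fga window, chr3:83026003-83026152, is set by RefSeq's start and runs past the GENCODE gene start given above. By the GENCODE coordinates the Fga match lies inside the gene. Of all 32851 promoter windows of this length, 3.71% held GTTAAT and 5.50% CTGGGAA, and a match is a description of the letters only.

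Gdf15, a stress-induced cytokine, had 69.8, 64.4, 206 and 314 CPM (4.50-fold at D7, 4.21 to 4.80), and Cyr61, a matrix protein, had 71.0, 75.5, 221 and 261 CPM. Both were near D0 at D1 and high at D4 and D7. The thinned share of cells with a UMI at D7 was 32.8% for Gdf15 and 38.4% for Cyr61, against 21.8 and 24.9% of Ptprc barcodes.

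Complement genes were higher at D7 from low levels. C4b had 4.82, 8.84, 18.8 and 54.5 CPM, 11.3-fold higher at D7 (8.97 to 14.4), and 14.8% of early cells against 3.56% of Ptprc barcodes held a UMI after thinning. Cfi, a protease that switches complement off, had 7.89, 9.73, 18.4 and 39.9 CPM, with 10.4% against 2.56%. C3 had 1.81, 2.57, 7.35 and 21.3 CPM (11.8-fold, 8.07 to 17.8) but only 3.60% of early cells against 9.39% of Ptprc barcodes held a UMI. With a pseudocount of 10 CPM in place of 1 the D7 log2 ratios fell to 2.12 for C4b, 1.48 for Cfi and 1.41 for C3. The chemokine Cxcl1 had 0.904, 2.01, 7.00 and 13.3 CPM, and its 2.50% of cells lay below the 4.55% of Ptprc barcodes. Of 17 chemokine, growth factor and complement genes, 11 were measured at D7, with 7 higher (5.34% of all genes) and 1 lower (1.8%). The lower one, Egf, named after its values were seen, went from 5.84 to 1.78 CPM. Egf is also among the thick ascending limb markers, and the part of RNA from other cells in its level was not tested.

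Among the other injury genes, 3 were higher in the sums at D7 with shares of cells near or below those of Ptprc barcodes. These were Cryab (11.8, 15.1, 30.5 and 59.2 CPM), Wfdc2 (6.02, 10.9, 14.9 and 34.0 CPM) and Hspb1 (1.69, 3.46, 11.4 and 14.3 CPM). At D7, 11.3% of thinned early cells held a Cryab UMI against 9.53% of Ptprc barcodes, 7.66 against 7.25% for Wfdc2 and 2.24 against 4.69% for Hspb1. Adamts1, a matrix protease (4.95-fold), Tnfrsf12a, the receptor of TWEAK (4.70-fold), and Nfkbiz, a nuclear regulator of NF-kappaB (4.56-fold), completed the genes ranked highest at D7, beside C4b, Fgg, Atf3, Cryab and Spp1. Early cells with a UMI of them made up 12.1, 12.7 and 14.7% at D7 after thinning, against 8.11, 10.5 and 26.2% of Ptprc barcodes.

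**Figure D3:**
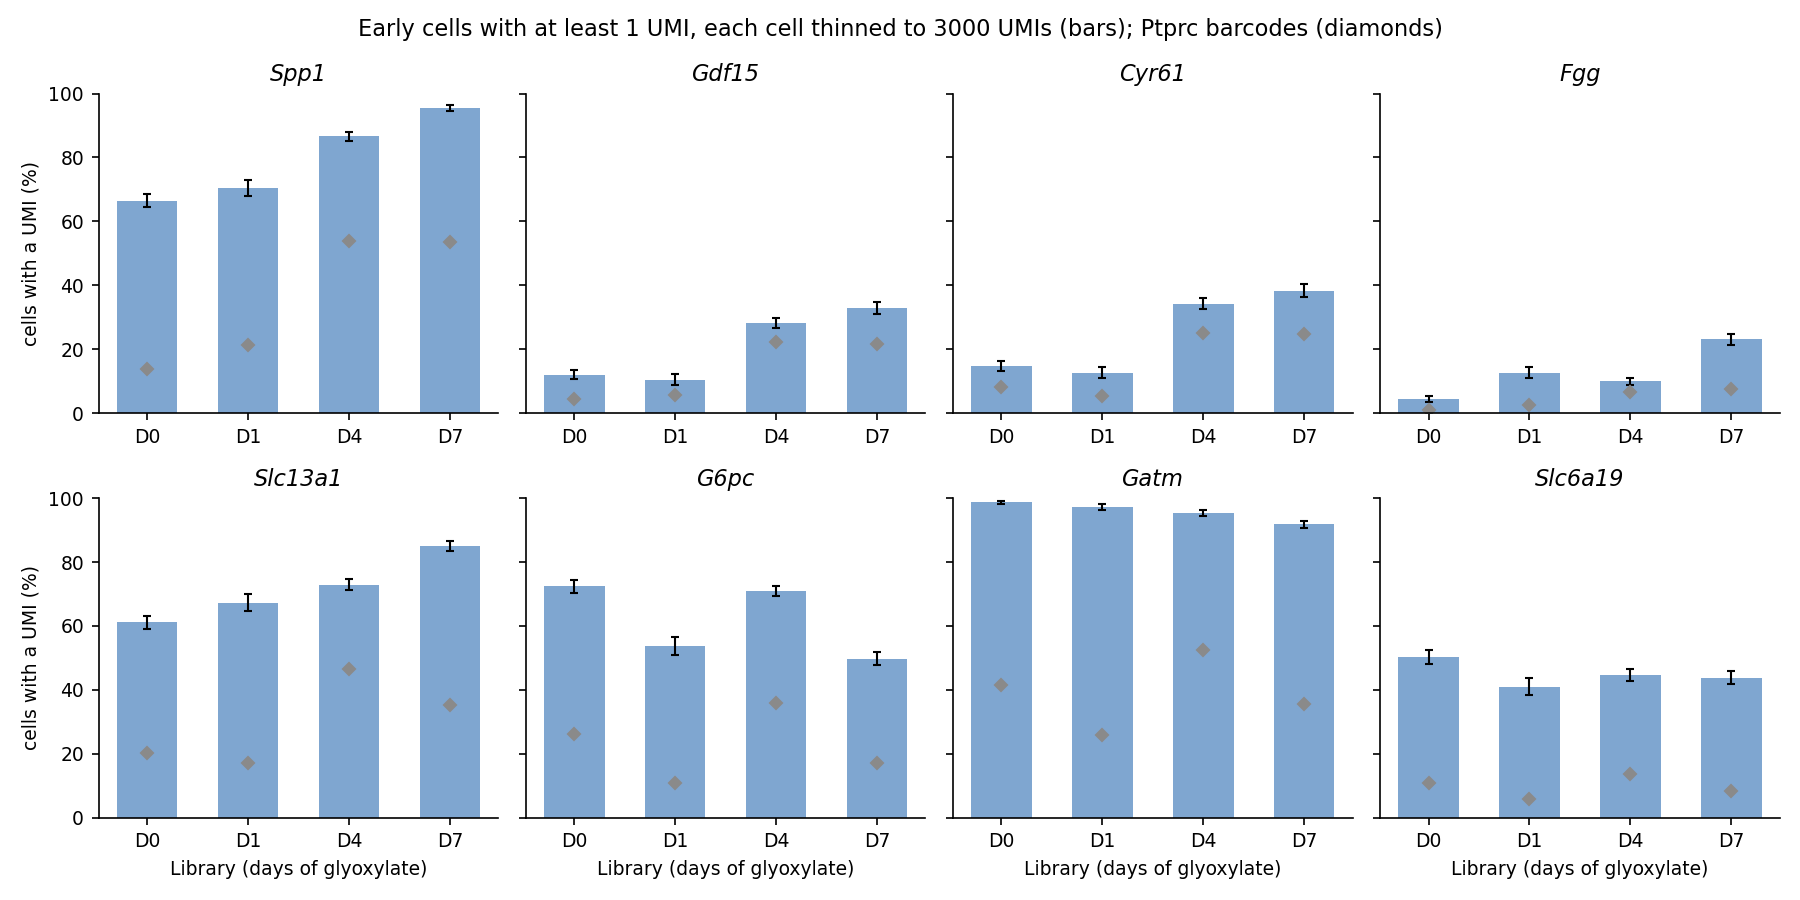
Percentage of early cells with at least 1 UMI of each gene, each cell thinned to 3000 UMIs (bars, with exact 95% intervals), and of Ptprc barcodes treated the same way (diamonds). Spp1 goes from 66.5 to 95.6% of early cells and Slc13a1 from 61.1 to 85.0%, and G6pc is low at D1 (53.8%) and D7 (49.7%).

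Stress lists of other kinds moved less. Of 18 measured glutathione, NRF2 and metallothionein genes (19 listed), 2 were higher at D1 (1.79% of all genes) and at D7 (5.34%), Gsta4 and Gsta1. Mt1, the only lower one at D7 (1.8%), went from 76.7 to 50.0 CPM. Of 12 measured unfolded protein and integrated stress response genes (15 listed), only Ddit3, the factor CHOP, was higher. Ddit3 had 32.9, 23.9, 57.7 and 63.4 CPM and was called at D4 (3.28% of all genes) and D7 (5.34%). Sesn2 was lower at D1 (0.781%).

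Transcription factors of the proximal tubule were mostly level. Of 16 measured, 2 were higher at D7 (5.34% of all genes), among them Pax8 (63.7 to 105 CPM), and none was lower on any day. Among 12 vitamin D, parathyroid hormone and angiotensin genes, Cyp27b1, which activates vitamin D, had 16.2, 16.8, 31.4 and 23.3 CPM, 1.94-fold higher at D4 (1.66 to 2.27). The angiotensinogen gene Agt was higher at D4 and D7, from 2.83 to 7.92 and 9.28 CPM, with a D7 share of early cells (2.12%) below that of Ptprc barcodes (2.56%).

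Of 15 late-segment genes, 10 were measured in the early gate at D7, and 2 were higher (5.34% of all genes) and 1 was lower (1.8%). Atp11a had 43.1, 38.8, 65.8 and 74.0 CPM there. The lower one, Acsm3, went from 16.8 to 9.78 CPM. At D7, 17.1% of thinned early cells against 21.1% of Ptprc barcodes held an Atp11a UMI, and 2.20 against 7.40% an Acsm3 UMI. The part of late-cell RNA in these levels was not tested.

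**Figure D4:**
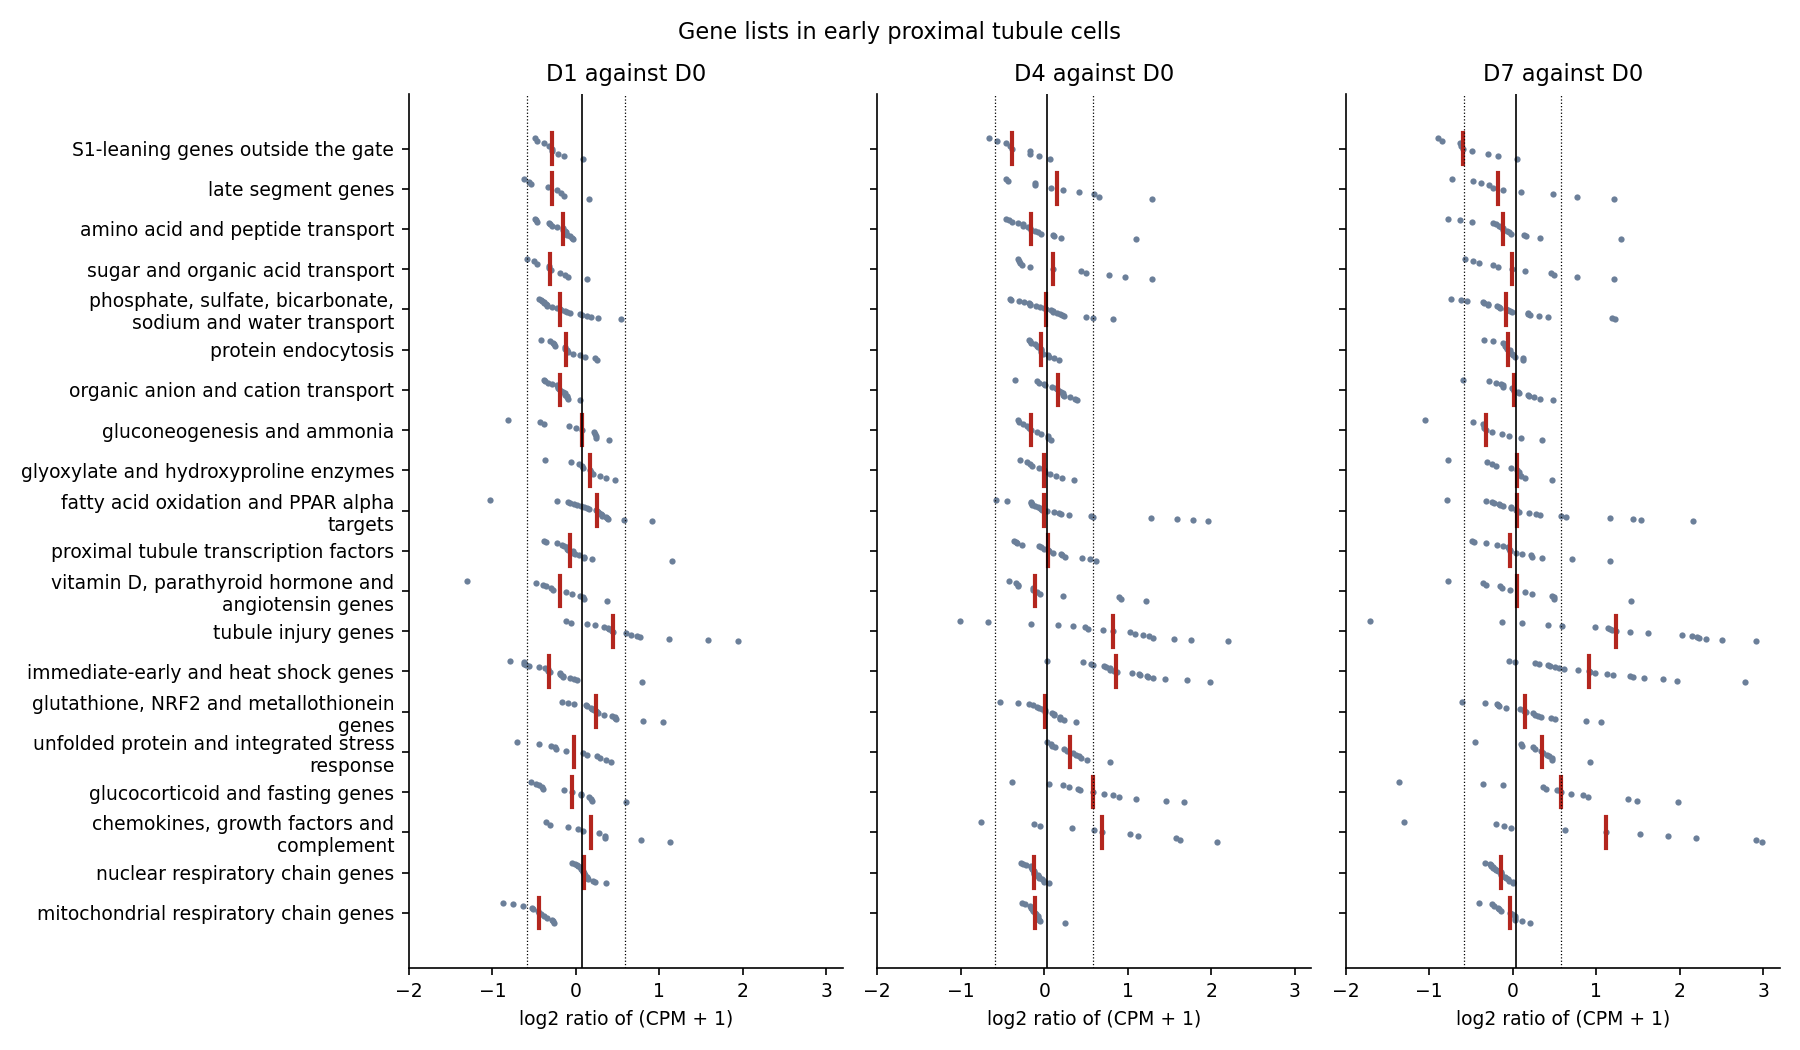
Log2 ratio of CPM + 1 to D0 for each measured gene (points) of the 20 lists in early cells, with the list's median (red bar), the median of all genes (solid line) and the 1.5-fold limits (dotted lines). Injury genes shift to a median of 1.24 at D7 and immediate-early genes to 0.86 at D4, and early-segment genes (top row, S1-leaning) to -0.59 at D7.

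Early and late cells of the same libraries were then compared by their D7 against D0 log2 ratios. The early and late gates share libraries but no cells. Among 10200 genes measured in both, 523 were higher in the early gate and 398 in the late gate, and 252 were higher in both, 48.2% of the early set and 63.3% of the late set. Fewer were lower in both, 46 of 159 early and 119 late. Over all genes measured in the early gate, 5.34% were higher and 1.8% lower, and in the late gate 462 and 167 of 10702 were. Both gates use the same D0 and D7 libraries, so differences between whole libraries enter both sides, and the overlap was not tested. The early ratio was at least 1.5-fold above the late one in 35 of 1934 abundant genes (1.81%) and below it in 18 (0.931%).

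Genes with at least 50 CPM at D0 or D7 in both gates were ranked by this difference. Spp1 had the largest one, with an early ratio 2.65 log2 units below the late one (-2.65, interval -2.78 to -2.52). The late gate started from 17.9 CPM at D0 and reached 64.5, 517 and 548 CPM, so the early gate was higher at each day while the fold was larger in the late gate. Apoe (-1.91) and Ccnd1 (-1.80) had the same form. Thinned late cells with a Spp1 UMI were fewer than Ptprc barcodes, with 4.63 against 13.98% at D0 and 46.3 against 53.5% at D7. Late cells also had the lower share on each day for Apoe and Ccnd1. The part of RNA from other cells in these late levels was not tested. Apoe, a lipid carrier, held 375 to 400 CPM in the early gate at D0 and D7 and went from 12.2 to 52.0 in the late gate, against 3714 CPM in Ptprc barcodes at D7, and Ccnd1, cyclin D1, went from 124 to 152 and from 11.8 to 53.7 CPM.

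Gsta2 (-1.12), Cbr1 (-1.28), Acaa2 (-1.20), Spp2 (-0.93) and Gatm (-0.92) were the other genes ranked lowest. For Gatm and Spp2 the difference came from the early gate, as their late levels were flat (134 to 137 and 56.9 to 60.2 CPM). The part of early-cell RNA in those late levels was not tested. The early-to-late ratio of Gatm went from 18.7 at D0 to 9.91 at D7, that of Spp2 from 16.6 to 8.74 and that of Slc6a19 from 14.1 to 9.07. The 2 gates were thus less far apart at D7 in these early genes. The median late marker in the early gate was also higher then (4.01% of its late-gate level at D0 and 7.55% at D7). Whether the 2 are linked was not tested.

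On the other side stood Ugt2b37 (1.67), Tmigd1 (1.47), Cndp2 (1.33), S100a10 (1.22), Slco1a6 (1.20), Cd74 (1.12), Ly6a (1.05) and Mgst1 (1.01). Ugt2b37, a glucuronosyltransferase, went from 22.6 to 57.2 CPM in the early gate and from 302 to 234 in the late gate. Cndp2, a peptidase, went from 274 to 610 and from 1854 to 1640 CPM. Tmigd1 went from 16.1 to 65.2 and from 332 to 466 CPM. All 3 were more abundant in the late gate on every day, and the early level over the late level went from 0.0747 to 0.245 for Ugt2b37, from 0.148 to 0.372 for Cndp2 and from 0.0484 to 0.140 for Tmigd1. The late-segment markers seen in the early gate stood between 3.25 and 23.3% of their late level at D7. The part of late-cell RNA in these differences was not tested.

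Cd74, the invariant chain of MHC class II, had 43.9, 49.7, 109 and 153 CPM in the early gate and 34.5, 47.8, 58.8 and 54.9 CPM in the late gate. Its level in Ptprc barcodes was 5704 CPM at D0 and 3907 at D7. Of thinned early cells 6.32, 8.14, 14.4 and 21.3% held a UMI, below the 51.6 to 53.9% of Ptprc barcodes at D0 and D7, and phagocyte markers in the early gate were also highest at D7 (75.7 CPM against 54.5 CPM in the late gate).

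**Figure D5:**
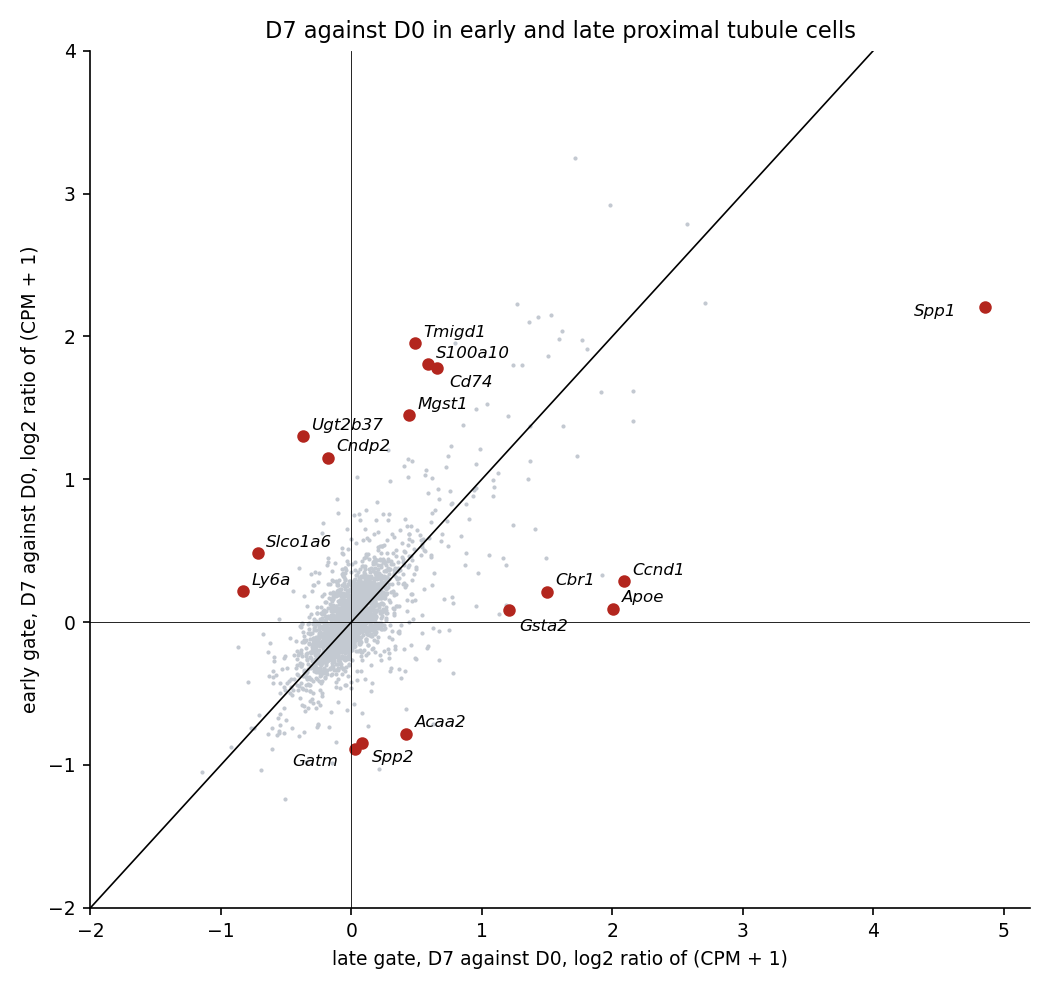
D7 against D0 log2 ratio of CPM + 1 in the late gate (horizontal axis) and the early gate (vertical axis), for genes with at least 50 CPM at D0 or D7 in the early gate; the diagonal marks equal ratios. Named are the 8 genes farthest above and the 8 farthest below among those with 50 CPM in both gates, from Ugt2b37 (1.67) to Spp1 (-2.65).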

How the data were processed

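The deposited matrices hold raw UMI counts per gene and barcode, made by the authors with Cell Ranger 3.1.0 against mm10, per the submitters' processing notes; the file headers name software version 3.0.1. The kit was the 3' v2 chemistry, per the labels' protocols. The sources used here do not give the annotation or how cells were called. Counts of the gated cells were summed per library over 27998 genes (Python 3.11.15, numpy 2.4.6, scipy 1.17.1; TMM factors from edgeR 4.0.16). Ratios are of CPM, with exact 95% intervals for 2 Poisson counts, and calls use CPM + 1. The functions were tested on simulated data. The late gate asked for 2 or more Slc7a13 UMIs and no Slc5a2 or Slc5a12 UMI. Of 314 listed genes 312 were matched. No doublet caller was run; cells above 20000 UMIs were left out in an alternative. Reads from near-identical copies, such as Cyp2d, Cyp4a, Gsta and Ugt2b genes, can be split between them.

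Members and lists were chosen with earlier results of these data known. Named genes are, per day, the 8 highest and 8 lowest ratios among genes with 100 or more UMIs and 50 CPM in the higher library, the 8 largest early-minus-late differences each way at D7, up to 4 members of each list, and all early-segment genes; the ranked parts left out gate, mitochondrial, ribosomal, haemoglobin and unnamed model genes. Results for a few listed genes are not reported here.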

Additional observations from a re-analysis of the deposited data

Results flagged for a closer look

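Of the 10200 genes measured in both gates, Cyp2d26 was the only one that was at least 1.5-fold lower at D7 in the early gate and at least 1.5-fold higher in the late gate. It encodes a cytochrome P450. In the early gate it had 308, 261, 262 and 187 CPM at D0, D1, D4 and D7, a ratio of 0.609 at D7 (0.581 to 0.638). In the late gate it had 16.0, 13.2, 29.3 and 25.3 CPM, a ratio of 1.58 (1.40 to 1.79). The early ratio lay 1.34 log2 units below the late one (-1.34, -1.53 to -1.15), and with 1 library a day this difference was not tested. The late level lay far below the early one on each day, and the part of early-cell RNA in it was not tested. Cyp2d genes are close copies of each other, so the split of reads between them is uncertain.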

How the results depend on the processing

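No paired analysis was possible because each day is 1 library, and no replicate could be left out. With 3000 or more UMIs per cell the early share of proximal tubule barcodes was 23.0% at D0 and 20.5% at D1. With at most 25% mitochondrial UMIs it was 19.1% at D0, 16.9% at D1 and 19.4% at D4. Thinning gave 16.8% at D1, 16.0% at D4 and 16.1% at D7. A gate of 4 or more UMIs gave 13.8, 11.3, 9.81 and 10.7%, and a gate on Slc5a12 alone 11.9, 10.9, 9.59 and 9.99%. D0 was the highest under each of these but the 25% limit, where D4 was.

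Counts of lower genes were 155 at D1 and 143 at D4 with at most 25% mitochondrial UMIs, 189 at D4 and 295 at D7 with thinning, 125, 165 and 302 with each cell weighing the same, and at D1 142 with TMM factors, 144 with median-of-ratios factors and 183 without mitochondrial genes. Counts of higher genes at D1 were 288 with thinning, 120 without mitochondrial genes and 284 with a minimum of 1 UMI. A pseudocount of 10 CPM left 21 higher and 17 lower genes at D1, 118 and 11 at D4, and 188 and 58 at D7. TMM gave 293 higher and 113 lower at D4, and median-of-ratios factors 481 and 249 at D7.

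The D1 ratio of Hspb1 (0.73, from 28 UMIs at D0) turned to -0.38 with thinning, -0.14 without cells above 20000 UMIs and -0.21 with each cell weighing the same; the cause was not tested. Of 67 D7 calls among the genes followed across settings, 51 were kept under all 13 alternatives and 0 reversed. The early-segment median at D7 ranged from -0.66 to -0.45.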

Other observations

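S100a6, a calcium-binding protein often high in injured tubules, was lower in early cells at D7, with 44.8, 71.5, 21.7 and 13.1 CPM. In the late gate it had 34.5, 42.9, 54.7 and 33.3 CPM. In barcodes with proximal tubule UMIs but none of the early or late gate genes S100a6 went from 1212 CPM at D0 to 804, 253 and 110 CPM. Those barcodes also held RNA of other cells. Their B cell markers summed to 183, 196, 29.3 and 8.17 CPM, intercalated cell markers to 83.3, 152, 56.2 and 85.4 CPM, and mononuclear phagocyte markers to 66.7, 99.7, 93.9 and 207 CPM. The part of such RNA in the S100a6 levels was not tested. S100a6 was chosen after its values were seen.

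Distal markers in the early gate did not move as a body. Intercalated cell markers summed to 9.76, 1.77, 21.9 and 19.7 CPM, and principal cell markers to 18.6, 11.5, 11.2 and 6.99 CPM. Distal convoluted tubule markers summed to 4.52, 3.30, 1.70 and 3.28 CPM, and thick ascending limb markers to 15.6, 18.1, 16.7 and 22.9 CPM. Markers of B cells, which are leukocytes, summed to 15.5, 20.6, 7.70 and 3.50 CPM.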
